A study of Mus musculus with 20 samples.

Results

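The 10 genes described here form the growth hormone, STAT5 and IGF1 axis as it is read out in liver RNA, and they were taken by symbol from a count table of 46095 gene symbols. They are the receptor Ghr, its kinase Jak2, the transcription factors Stat5a and Stat5b, the feedback inhibitors Socs2 and Cish, the circulating growth factor Igf1 with its carrier subunit Igfals, and the transcriptional repressors Bcl6 and Cux2. All 10 were found, and all 10 passed the filter on low counts that left 14440 genes for testing. The samples were whole livers of 20 mice aged 31 to 33 weeks, either wild type (WT) or carrying a liver-specific deletion of Pck1 (Pck1-cKO, called KO here), and fed chow or a NASH diet for 24 weeks. Each of the 4 groups held 5 mice, named WT chow, WT NASH, KO chow and KO NASH. The labels do not state the driver of the deletion or whether the WT mice carried floxed alleles. Pck1 encodes the cytosolic enzyme that feeds gluconeogenesis, and the study was set up to ask what its loss does to the liver transcriptome under a diet that induces steatohepatitis.

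Growth hormone from the pituitary binds GHR on hepatocytes, and the bound receptor activates the kinase JAK2, which phosphorylates STAT5A and STAT5B. The STAT5 proteins then bind DNA and switch on genes such as Igf1, Igfals, Socs2 and Cish, while the SOCS family proteins damp the signal. In rodents, growth hormone is released in pulses in males and more evenly in females, and this difference sets much of the sex-biased gene expression of the liver. Bcl6 is known as a repressor more active in male liver that competes with STAT5 for its sites, and Cux2 as a repressor and activator expressed in female liver.

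Because the axis acts through STAT5 sites, the RefSeq promoter windows of the genes (GRCm38.p6, 250 bases before to 50 after each start) were searched for the STAT5 motif TTCNNNGAA, which reads the same on both strands. Windows were given for 9 of the 10 genes, with none for Socs2, and 3 of these 9 held the motif, namely Cish, Bcl6 and Igfals. Sequence outside the windows was not searched. The 9 genes have 16 windows, of which 5 (31.2%) held it, against 2726 of 32851 windows of all genes (8.3%). The 5 windows belong to these 3 genes, so they are not independent, and the share by gene over all genes was not counted. Windows with 2 or more copies made up 0.457% of all windows, and 3 copies, as in 1 Bcl6 window, were found in 11 windows (0.0335%). The matches are shown because these are the genes with the motif in a searched window, and because Cish and Bcl6 ran in opposite directions across the livers. The capitals mark the motif.
Cish, plus strand, chr9:107296654-107296683: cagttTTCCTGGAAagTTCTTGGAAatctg
Bcl6, minus strand, chr16:23981351-23981463: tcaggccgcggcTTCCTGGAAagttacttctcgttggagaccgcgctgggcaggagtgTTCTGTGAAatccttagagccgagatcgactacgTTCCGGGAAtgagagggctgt
Bcl6, minus strand, chr16:23988950-23988982: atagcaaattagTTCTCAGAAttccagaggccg
Igfals, plus strand, chr17:24877596-24877628: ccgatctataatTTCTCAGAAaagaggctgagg
Igfals, plus strand, chr17:24878161-24878193: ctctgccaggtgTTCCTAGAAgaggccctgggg
In the GENCODE M21 annotation of GRCm38, the Cish stretch lies in the 5′ UTR exon, the Bcl6 stretch with 3 copies and both Igfals stretches lie in introns upstream of alternative starts, and the other Bcl6 stretch lies upstream of the gene. A match describes the letters only, and no binding was measured here.

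The 20 libraries held 9958935 to 20601955 counts each. The deleted gene was lower in every KO library than in every WT library on the same diet. Pck1 averaged 3573 ± 1139 CPM (counts scaled to TMM-adjusted library size, mean ± SD, n = 5) in WT chow and 626 ± 175 in KO chow, a KO level of 17.5% of WT, and 2290.0 ± 511 in WT NASH against 445 ± 112 in KO NASH (19.4%). The labels do not give sex, which was read from 4 Y-linked genes and was uneven: all 5 WT chow mice and 4 of 5 KO NASH mice were male (replicate 2 female), WT NASH had a single male, replicate 4, and KO chow had females as replicates 3 and 5. In 6 libraries (WT chow replicates 3, 4 and 5, WT NASH replicate 4, KO chow replicates 4 and 5) expression relative to the other libraries fell with gene length, with slopes of -0.35 to -0.25 on a log2 scale against 0.01 to 0.19 in the other 14. Both features differ between the groups, so values with sex as a term and without these 6 libraries stand beside the results they change, and their part in other differences was not tested. Hepatocyte markers summed to 52590 to 133500 CPM in every library, and 8 Kupffer cell and macrophage markers to 307 to 1386 CPM. The latter summed to 345.8 to 468 CPM in KO NASH, below every WT NASH liver (482 to 1044 CPM), in the comparison where Ghr, Igf1 and Cux2 fell, and their part in these results was not tested. Adipose tissue markers, at no more than 5.16 CPM in the other groups, summed to 3.59 to 54.5 CPM in KO NASH, with Lep at 0 in all 20 libraries.

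**Figure D1:**
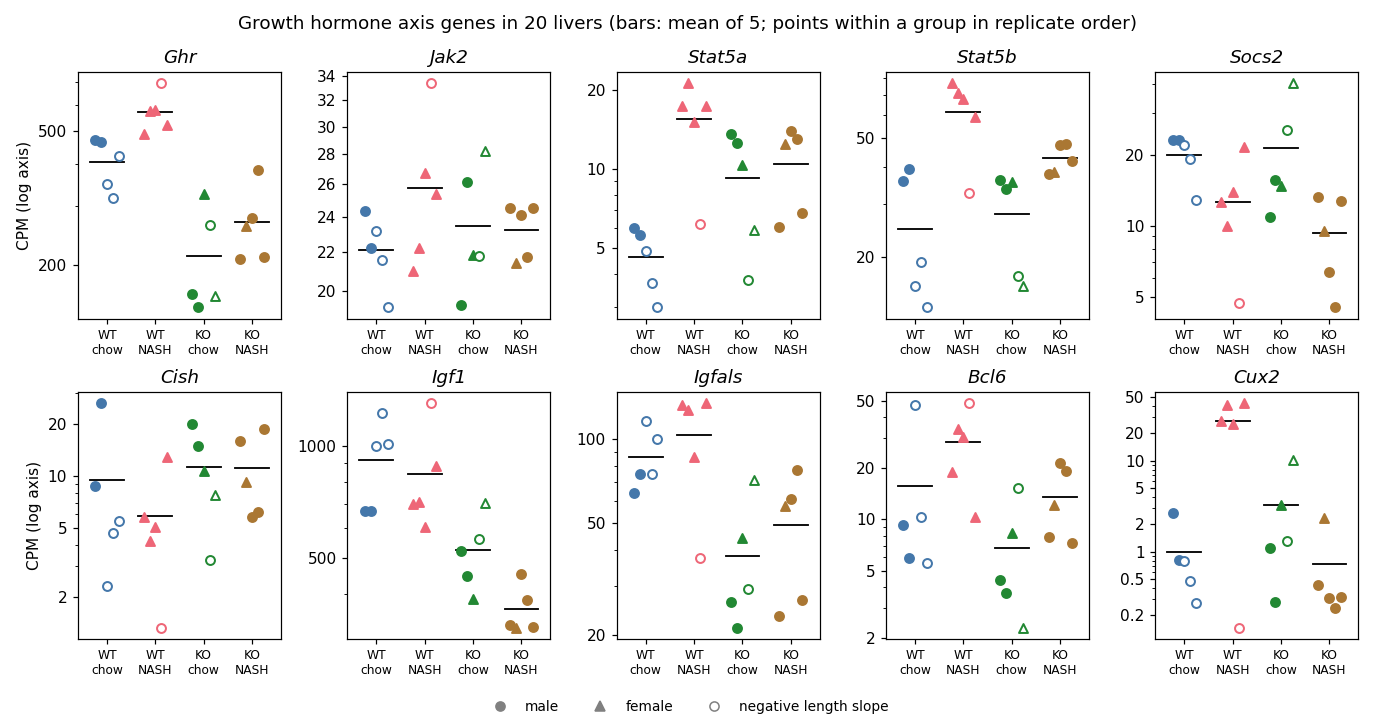
Level of each of the 10 genes in the 20 livers, in CPM with library sizes scaled by TMM, on log axes. Circles are males and triangles females, open symbols are the 6 libraries with a negative length slope, and bars are means of 5. Ghr and Igf1 sit lower in KO NASH than in every WT NASH liver, and Cux2 is highest in the 4 WT NASH females, at 25.1 to 43.1 CPM.

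The genes span a wide range of levels. Per kilobase of exon, Igf1 was the most abundant of the 10 in WT chow, at 92.5 CPM per kb, followed by Ghr at 44.7 and Igfals at 27.2. Stat5b (4.48) and Jak2 (4.39) came next and did not differ beyond their spread, Bcl6, Socs2, Cish and Stat5a lay between 2.34 and 0.65, and Cux2 was lowest at 0.10. Since the libraries come from whole liver, fewer cells of a type and less RNA per cell cannot be told apart.

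Ghr was lower in the knockout on both diets and Igf1 on the NASH diet. Stat5a, Stat5b and Cux2 were higher in WT NASH than in WT chow, groups that differ in sex as well as in diet. Of the 10 genes, 3 rose and none fell in WT NASH against WT chow (5.93% of all 14440 genes were called, 2.69% as higher), 1 fell and none rose in KO chow against WT chow (5.53%, with 2.49% lower), and 3 fell and none rose in KO NASH against WT NASH (9.65%, with 4.74% lower). None was called in KO NASH against KO chow (3.29% of all genes, 3 of the 10 at an unadjusted p under 0.05, and 1, Socs2, by DESeq2). None was called in the interaction of genotype and diet (0.139% of all genes, 2 at an unadjusted p under 0.05). A call here is a Benjamini-Hochberg adjusted p under 0.05 in edgeR's quasi-likelihood test over all genes tested, and the median log2 fold change of the 10 genes was 0.38, 0.09, -0.82, 0.08 and -0.32 in the 5 comparisons in that order, beside medians of 0.01, 0.00, 0.00, -0.02 and -0.03 over all genes. The 4 group comparisons share libraries, so they are not independent of each other.

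The share of all genes called moved with the model, and the calls named below are read against it. In WT NASH against WT chow it was 1.11% with sex as a term, 5.00% with sex and slope as terms, 0.596% in males alone and 4.88% without the 6 libraries of negative slope. In KO chow against WT chow the same settings gave 5.84%, 13.8%, 6.23% and 5.33%, the slope alone as a term gave 11.5%, and DESeq2 gave 9.62%. In KO NASH against WT NASH they gave 4.33%, 10.5%, 13.0% and 20.3%, sex as a term without the 6 libraries gave 2.44%, and females gave 0.138% with all libraries and 1.85% without the 6. In KO NASH against KO chow sex as a term gave 3.98%, DESeq2 9.02% and leaving out the 6 libraries 7.69%, and for the interaction sex as a term gave 0.0277%. Limma (voom with quality weights) called far more genes: 40.6% in WT NASH against WT chow, 40.4% in KO chow against WT chow, 23.8% in KO NASH against WT NASH and 13.5% in the interaction. Its calls among the 10 genes were 4, 7, 6 and 3 in these comparisons. Below, a gene is called or not called by edgeR unless another tool is named.

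Ghr, the growth hormone receptor (chr15:3317760-3583492, minus strand), was lower in the knockout on both diets. Its level in WT chow was 471, 465, 349.8, 317 and 423 CPM in replicates 1 to 5, against 165, 149.9, 325, 264 and 163 CPM in KO chow. All but 1 of the KO chow livers were below every WT chow liver, so the groups overlapped only through KO chow replicate 3, a female. None of the 10 genes separated the groups on chow fully, as 4.91% of all genes did. In WT NASH the level was 489.7, 576, 579, 695 and 521 CPM, and in KO NASH it was 209, 262, 277, 383.5 and 212 CPM. The groups on the NASH diet did not overlap, as was true of 14.1% of all genes in that comparison. The mean fell to 52.6% of WT on chow (405 ± 69.0 to 213 ± 77.4 CPM, SD, n = 5; log2 fold change -0.93, SE 0.24, adjusted p = 0.0276 in edgeR) and to 47.0% of WT on the NASH diet (572 ± 78.4 to 269 ± 70.8 CPM; log2 fold change -1.09, SE 0.24, adjusted p = 0.00812 in edgeR).

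The Ghr call on chow was close to the threshold. Leaving out WT chow replicate 1, 2 or 5 or KO chow replicate 1, 2 or 5 ended it, with edgeR adjusted p-values of up to 0.0865 and log2 fold changes of -1.13 to -0.82 over the 20 such fits, as did fitting only these groups (adjusted p = 0.137) or applying no low-count filter (0.0694). It held with sex as a term (log2 fold change -0.94, adjusted p = 0.0402 in edgeR), in males alone (-1.06, 0.0478) and in the libraries without a negative slope (-1.13, 0.0478). On the NASH diet the call held in all 20 fits that left out 1 library, with sex as a term (-1.08, adjusted p = 0.0289 in edgeR) and in males alone (-1.33, 0.0431), where WT NASH is 1 mouse whose spread is taken from the other groups and which has the highest Ghr of all 20. It was lost with sex as a term among the 14 libraries without a negative slope (-0.59, adjusted p = 0.336 in edgeR), where WT NASH holds only females, and KO NASH 1 female. In females alone, 4 against 1, it was -1.02 and was not called (adjusted p = 0.609 in edgeR). The interaction, the difference between the knockout's effect on the 2 diets, was -0.16 (95% interval -0.86 to 0.53, adjusted p = 0.961 in edgeR).

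In WT, every NASH liver had a higher Ghr level than every chow liver, as Stat5a did, and 6.15% of all genes separated these groups. The log2 fold change of 0.50 (SE 0.24) did not pass the test (adjusted p = 0.222 in edgeR), though limma called it (adjusted p = 0.0371). In KO livers the corresponding value was 0.34 (SE 0.24, adjusted p = 0.40 in edgeR).

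Jak2, the receptor-associated kinase, had the narrowest range of the 10. Its level ran from 19.2 to 33.4 CPM over all 20 livers, with group means between 22.1 and 25.8 CPM. The knockout differed from WT by log2 fold changes of 0.09 on chow (95% interval -0.23 to 0.40) and -0.15 on the NASH diet (95% interval -0.46 to 0.17), and neither was called. The highest level was in WT NASH replicate 4.

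Stat5a and Stat5b encode near-identical transcription factors, with STAT5B the main form in liver, and lie head to head on chromosome 11, their starts 8626 bases apart. Stat5a was at 5.98, 5.63, 4.88, 3.70 and 2.98 CPM in WT chow and at 17.4, 21.3, 15.2, 6.18 and 17.5 CPM in WT NASH. Every WT NASH liver exceeded every WT chow liver, and the lowest of them was the only WT NASH male, replicate 4. Stat5b was at 35.8, 39.6, 15.9, 19.2 and 13.5 CPM in WT chow and at 76.8, 70.9, 68.0, 32.7 and 58.9 CPM in WT NASH. The 4 WT NASH females were above all WT chow livers, and the male fell within their range. That male and WT chow replicates 3, 4 and 5, the lowest WT chow livers for both genes, are libraries of negative slope. Over all groups Stat5b averaged 19.1 CPM in the 6 libraries of negative slope and 47.8 CPM in the other 14. For Stat5a these means were 4.57 and 12.3 CPM.

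With diet in WT mice, Stat5a rose by a log2 fold change of 1.75 (SE 0.36, adjusted p = 0.00804 in edgeR) and Stat5b by 1.31 (SE 0.31, adjusted p = 0.0172 in edgeR), and both calls held in all 20 fits leaving out 1 library. Fitted on these groups alone, Stat5b was not called (adjusted p = 0.0647 in edgeR). With sex as a term neither was called: Stat5a had a log2 fold change of 1.46 (adjusted p = 0.172 in edgeR) and Stat5b of 1.18 (0.204). In males alone, 5 against 1, where the WT NASH male has a negative slope, the values were 0.39 and 0.37. Without the 6 libraries of negative slope both were called, at 1.63 (adjusted p = 0.0117 in edgeR) and 0.88 (0.00441), and with sex and slope as terms Stat5b was called (0.92, adjusted p = 0.00261 in edgeR) and Stat5a was not (1.10, 0.0760). WT chow held no female, so diet and sex cannot be told apart in WT females.

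Among comparisons that involve the knockout, edgeR called neither Stat5 gene with all 20 libraries and groups as the only term. Stat5a was at 13.6, 12.6, 10.3, 3.78 and 5.89 CPM in KO chow and 6.01, 12.4, 14.0, 13.1 and 6.85 CPM in KO NASH. Both KO chow livers under 6 CPM had a negative length slope. The KO chow mean of Stat5a was 199.4% of WT chow, a log2 fold change of 1.00 (SE 0.36) that edgeR did not call (adjusted p = 0.115) and limma did (1.38, adjusted p = 0.00859). Limma also called Stat5b there (0.82, adjusted p = 0.0109, beside 0.16 and 0.812 in edgeR). It called both genes in KO NASH against WT NASH (adjusted p = 0.0171 and 0.0133) and in the interaction (0.00821 and 0.00781). Stat5b was at 36.2, 33.8, 35.7, 17.3 and 16.0 CPM in KO chow and at 37.9, 38.6, 47.6, 48.1 and 41.9 CPM in KO NASH. The KO groups did not overlap for Stat5b, as for 8.50% of all genes, but its log2 fold change of 0.62 was not called (adjusted p = 0.236 in edgeR), and the pair of KO chow livers lowest for it are again those with a negative slope. On the NASH diet, the knockout's Stat5b fell against WT when the slope was a term with sex (log2 fold change -0.72, adjusted p = 0.00462 in edgeR) or the 6 libraries were left out (-0.68, 0.00108), beside -0.52 (0.298) with all libraries.

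The strand setting of the counting is not given in the sources used here, and 72 exonic bases of Stat5a overlap those of Stat3 on the other strand. Reads from these bases, and reads shared by the alike Stat5a and Stat5b, could be split between genes.

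**Figure D2:**
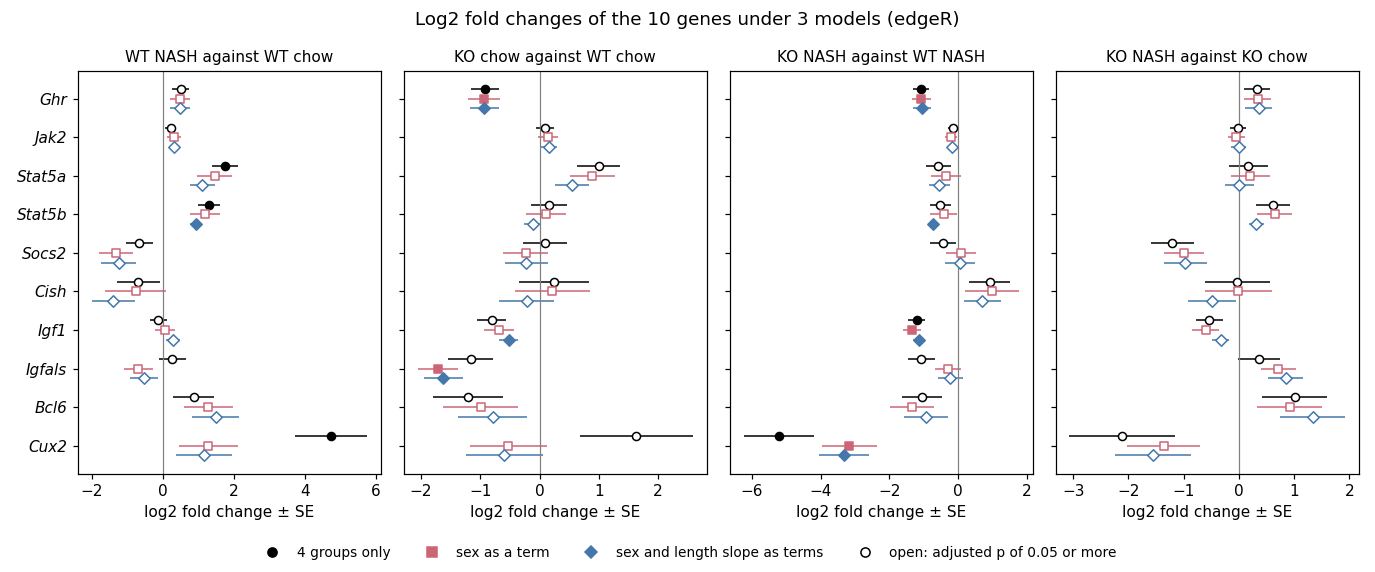
Log2 fold change with its SE for each gene in the 4 group comparisons, from edgeR with the 4 groups only (black), with sex as a term (red) and with sex and length slope as terms (blue). Filled symbols passed an adjusted p of 0.05, and Ghr in the third panel (KO NASH against WT NASH) is filled under all 3 models, at -1.09, -1.08 and -1.06.

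Igf1, the hormone that carries much of the growth signal from liver into blood (chr10:87858265-87937042, plus strand), was lower in KO NASH. It was at 669.6, 669.6, 1000.5, 1228 and 1015 CPM in WT chow, and at 523, 448, 388, 560.3 and 703 CPM in KO chow. Only KO chow replicate 5 reached the WT chow range. In WT NASH it was at 697, 707, 604, 1307 and 884 CPM, against 329, 324, 451, 386 and 325 CPM in KO NASH, and no KO liver reached a WT one.

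The KO NASH mean was 43.2% of WT NASH (840.0 ± 280.0 to 363 ± 55.5 CPM, SD, n = 5), a log2 fold change of -1.21 (SE 0.24, adjusted p = 0.00481 in edgeR), and this call held in all 20 fits leaving out 1 library, with a sex term (-1.35, adjusted p = 0.00658 in edgeR) and with sex as a term among the 14 libraries of positive slope (-1.20, 0.00988). Split by sex, each fit has an arm of 1 mouse. In males the value was -1.78 (adjusted p = 0.00880 in edgeR), against WT NASH replicate 4, the liver with the highest Igf1 of all 20 and a negative slope. In females it was -1.14 and was not called (adjusted p = 0.52 in edgeR). On chow the KO mean was 57.2% of WT (917 ± 243 to 524 ± 120.0 CPM), and the log2 fold change of -0.81 (SE 0.24) did not pass (adjusted p = 0.0562 in edgeR). DESeq2 called it (adjusted p = 0.0147), as did limma (0.0011) and edgeR with the length slope as a term (-0.62, 0.0166). The 3 highest WT chow livers are those with a negative slope, and among the 14 other libraries the value was -0.55 (adjusted p = 0.127 in edgeR). The knockout's effect on the 2 diets differed by -0.41 (95% interval -1.12 to 0.31, adjusted p = 0.843 in edgeR).

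Igfals encodes the subunit that keeps IGF1 and its binding protein in a long-lived complex in blood. It was at 64.2, 74.9, 116, 75.1 and 99.9 CPM in WT chow and at 26.2, 21.3, 44.3, 29.1 and 71.1 CPM in KO chow. The overlap on chow came from KO chow replicate 5, and the KO mean was 44.6% of WT. Its log2 fold change of -1.17 (SE 0.39) was not called (adjusted p = 0.0837 in edgeR), but with sex as a term it was -1.71 (adjusted p = 0.00611 in edgeR), and in males alone -1.74 (0.0180). Limma called it on both diets (adjusted p = 0.00137 on chow and 0.00239 on the NASH diet). On the NASH diet, levels were 132, 127, 86.0, 37.7 and 134 CPM in WT and 23.3, 57.8, 61.0, 77.1 and 26.7 CPM in KO. The lowest WT NASH liver was its only male, replicate 4, and the log2 fold change of -1.07 (adjusted p = 0.0819 in edgeR) was -0.30 (0.711) with sex as a term. Females exceeded males by 1.08 (SE 0.31) on the log2 scale, which edgeR did not call (adjusted p = 0.147) and DESeq2 did (0.0288, with 1.97% of all genes called). Without the 6 libraries of negative slope this difference was 0.59 (SE 0.37, adjusted p = 0.552 in edgeR).

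Among the feedback inhibitors, Socs2 was at 23.1, 23.0, 21.9, 19.1 and 12.9 CPM in WT chow and 12.7, 9.97, 13.9, 4.71 and 21.6 CPM in WT NASH. In KO chow it was at 10.9, 15.6, 14.8, 25.3 and 40.2 CPM, and in KO NASH at 13.2, 9.49, 6.39, 4.50 and 12.8 CPM. The KO NASH mean was 43.4% of KO chow, but the groups overlapped and edgeR did not call it (log2 fold change -1.20, SE 0.38, adjusted p = 0.0845; DESeq2 adjusted p = 0.0257). The KO chow livers highest for Socs2, replicates 4 and 5, have a negative slope, and without the 6 libraries the log2 fold change was -0.57 (adjusted p = 0.258 in edgeR).

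Cish, the other inhibitor, was called by edgeR in no comparison, and by limma in KO chow against WT chow (log2 fold change 1.65, adjusted p = 0.0369). It was at 8.71, 26.3, 2.29, 4.65 and 5.47 CPM in WT chow, 5.75, 4.21, 5.02, 1.32 and 12.9 in WT NASH, 19.9, 14.8, 10.7, 3.27 and 7.78 in KO chow, and 15.9, 9.15, 5.77, 6.18 and 18.7 in KO NASH. The groups overlapped in each of the 4 comparisons. With all libraries and groups as the only term, its largest log2 fold change was 0.91 (SE 0.60, adjusted p = 0.358 in edgeR) in KO NASH against WT NASH. Cish averaged 4.13 CPM in the 6 libraries of negative slope and 11.7 CPM in the other 14. Without the 6, WT NASH against WT chow was -1.32 (adjusted p = 0.165 in edgeR), beside -0.69 (0.516) with all libraries. Reads of Cish could include those of 2 genes on the other strand, the processed pseudogene Gm17040 and the antisense gene Gm17041, which share 261 and 479 exonic bases with it.

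Bcl6, the repressor, was at 9.24, 5.96, 47.4, 10.4 and 5.54 CPM in WT chow, and at 19.1, 34.1, 30.3, 48.3 and 10.3 CPM in WT NASH. In KO chow it was at 4.40, 3.70, 8.32, 15.2 and 2.31 CPM, and in KO NASH at 7.89, 12.1, 21.5, 19.3 and 7.21 CPM. The groups overlapped in all 4 comparisons, and edgeR called none, while limma called KO chow against WT chow (-1.84, adjusted p = 0.0310). The knockout's log2 fold changes were -1.21 (SE 0.60, adjusted p = 0.279 in edgeR) on chow and -1.06 (SE 0.59, 0.267) on the NASH diet. Without WT chow replicate 3 the chow value was -0.19. The difference of females from males was -0.59 (SE 0.53, adjusted p = 0.999 in edgeR), and its sign turned without the 6 libraries of negative slope (0.39) and in limma (0.21), with no call.

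Cux2, a transcription factor expressed in female liver, set the sexes apart. In the WT NASH females it was at 27.6, 41.1, 25.1 and 43.1 CPM (replicates 1, 2, 3 and 5), in the KO chow females at 3.27 and 10.3 CPM, and in the KO NASH female at 2.35 CPM. The 13 males ranged from 0.15 to 2.67 CPM with a median of 0.43, on 1 to 45 counts each. All but the KO NASH female exceeded every male, so the sexes overlapped through WT chow replicate 1. Adjusted for group, females exceeded males by a log2 fold change of 3.55 (SE 0.59, adjusted p = 0.00172 in edgeR), the only one of the 10 genes called between the sexes (1.02% of all genes were), and it was called in all 20 fits leaving out 1 library, at 2.92 to 3.97. Without the 6 libraries of negative slope it was 2.58 (adjusted p = 0.0115 in edgeR, with 0.668% of all genes called). Fits with a sex term assume 1 sex difference shared by all groups, which was not tested. Cux2 averaged 34.2 CPM in females against 0.15 in the 1 male of WT NASH. These levels were 6.77 and 0.90 CPM in KO chow, and 2.35 (1 female) and 0.32 CPM in KO NASH.

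The 4 WT NASH females had Cux2 at 25.1 to 43.1 CPM and the 3 KO females at 2.35 to 10.3 CPM, but 2 of these 3 were fed chow, so genotype and diet cannot be told apart over the 7. For KO NASH against WT NASH the log2 fold change was -5.21 (SE 1.03, adjusted p = 0.00389 in edgeR) with groups alone and -3.16 (SE 0.81, 0.0306) with sex as a term. In females alone, 1 KO mouse against 4, it was -3.84 and did not pass (adjusted p = 0.157 in edgeR), and without the 6 libraries it was -3.86 (0.0135). The spread of the lone mouse is assumed to be that of the others. In males alone it was 1.17 (adjusted p = 0.675 in edgeR), with WT NASH replicate 4 at 1 count. The diet's effect in WT, 4.73 (SE 1.02, adjusted p = 0.00922 in edgeR), came with a change from 5 males to 4 females, and with sex as a term it was 1.28 (0.525). The interaction was -6.84 (adjusted p = 0.0517 in edgeR), or -2.64 (0.631) with sex as a term.

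The 10 genes were next compared with each other across the 20 livers, as Pearson correlations of log2(CPM + 0.1) over 45 pairs with permutation p-values adjusted over the pairs. The permutations ran over all 20 livers without regard to group, so differences between groups count towards these correlations. After adjustment, 4 pairs passed. Stat5a and Stat5b rose and fell together (r = 0.858, rho = 0.842). The permutation p was 1e-05, the smallest 100000 permutations can give, and its adjusted value was 0.00045. Without the 2 livers farthest from the Stat5a median, r was 0.803. It was 0.672 in the 14 libraries of positive slope, 0.591 in the other 6 and 0.789 after subtracting each group's mean.

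Cish and Bcl6 ran in opposite directions (r = -0.744, permutation p = 0.00016, adjusted p = 0.0036; rho = -0.740, p = 0.00031, adjusted p = 0.00697). The relation was present in males (r = -0.839, n = 13), in females (-0.605, n = 7), in the 14 libraries of positive slope (-0.911), in the 6 others (-0.957) and after subtracting each group's mean (-0.769). Without the 2 livers farthest from the Cish median it was -0.685. The highest Bcl6 liver, WT NASH replicate 4 at 48.3 CPM, had the lowest Cish, at 1.32 CPM.

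**Figure D3:**
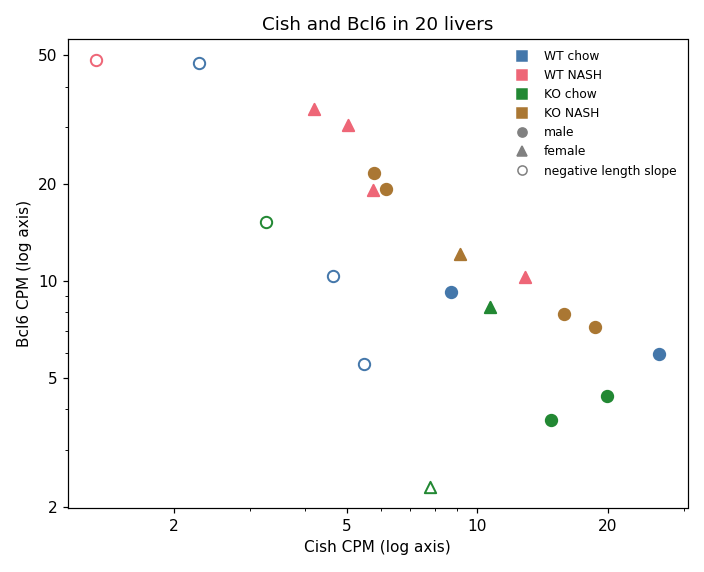
Cish and Bcl6 in the 20 livers, both in CPM on log axes, coloured by group, with males as circles, females as triangles and the 6 libraries of negative length slope as open symbols. Bcl6 falls as Cish rises, with r = -0.744 over all 20 livers and -0.911 over the 14 filled symbols.

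Ghr was correlated with Bcl6 (r = 0.671, rho = 0.636, permutation p = 0.0013 and 0.00306, adjusted p = 0.0195 and 0.0344) and with Igfals (r = 0.657, rho = 0.678, permutation p = 0.0019 and 0.00133, adjusted p = 0.0214 and 0.0199). Without the 2 livers farthest from the Ghr median the values were 0.529 and 0.679. The Ghr relation with Igfals held in the 14 libraries of positive slope (0.922) and not in the other 6 (-0.116), and after subtracting group means r was 0.149, against 0.435 for Bcl6. Ghr and Igf1 (r = 0.533, permutation p = 0.0163, adjusted p = 0.092) did not pass.

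**Figure D4:**
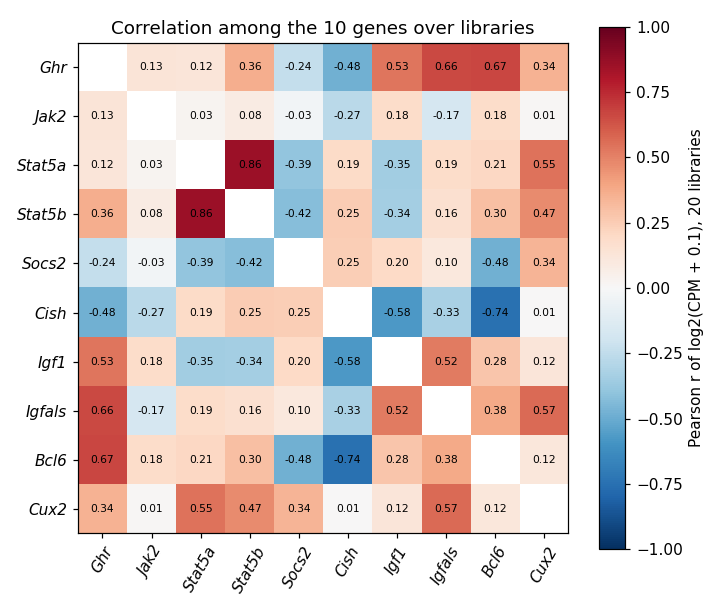
Pearson correlation of log2(CPM + 0.1) between each pair of the 10 genes over 20 livers, red for positive and blue for negative. The strongest pairs are Stat5a with Stat5b (0.86) and Cish with Bcl6 (-0.74).

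By profile over the 20 livers, among 8962 genes of at least 5 CPM, Ghr was most like Ido2 (r = 0.959), a tryptophan-degrading enzyme, and Pdcd4 (0.935). Igf1 was most like the steroid dehydrogenase Hsd17b2 (0.937) and Serpina12 (0.921), and Igfals most like Fkbp4 (0.913) and Slc6a13 (0.891). Stat5b was most like Svil (0.966) and Ap2b1 (0.963), Stat5a like Abca3 (0.914) and Map3k13 (0.909), and Cux2 like Cyp2c69 (0.928) and Cyp2c40 (0.910). Cish (Asb1 0.880, Akap11 0.847), Bcl6 (Atp2c1 0.812, Tubgcp4 0.800), Socs2 (Ddx3x 0.790, Agtr1a 0.746) and Jak2 (Marcksl1 0.784, Fam49a 0.732) had weaker best matches. These are descriptions over livers that share groups and sequencing features.

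Of the 33 tested genes in a list of 34 pathway partners (phosphatases, further JAK and STAT proteins, IGF receptors and binding proteins, liver transcription factors), few passed. In WT NASH against WT chow 1 rose and 1 fell, and Igfbp2, a binding protein for IGFs, fell by 2.15 (SE 0.46, adjusted p = 0.00915 in edgeR). In KO chow against WT chow 1 rose and none fell, Hnf4g by 2.55 (adjusted p = 0.0239 in edgeR) at levels of no more than 1.70 CPM. In KO NASH against WT NASH 1 rose and 3 fell, with Fgf21, a hepatic hormone, higher by 1.82 (SE 0.55, adjusted p = 0.0423 in edgeR) and the prolactin receptor Prlr lower by a log2 fold change of -2.04 (SE 0.62, adjusted p = 0.0410 in edgeR), with the glucocorticoid receptor Nr3c1 also among those that fell. In KO NASH against KO chow the kinase Tyk2 rose by 0.76 (SE 0.20, adjusted p = 0.0390 in edgeR) and none fell. The list's median log2 fold changes were 0.24, 0.04, 0.11 and 0.16 in these comparisons. With sex as a term only Fgf21 (2.80, adjusted p = 0.0210 in edgeR) and Tyk2 (0.83, 0.0200) of the partner genes named here were called. Females exceeded males for Prlr by 2.39 (SE 0.34, adjusted p = 0.000318 in edgeR), at 173 to 532 CPM in females and 31.2 to 138 in males.

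The liver's sex-biased genes are known to depend on growth hormone. Of 22 tested genes on a list of male-biased ones, 14 were lower in females and none was higher. The list was chosen for this bias, with earlier results of these data known, so the direction is not an independent result. Over all genes, 0.540% were lower in females and 0.478% higher. The list's median log2 fold change between females and males was -3.86, against -0.01 over all genes. On chow 5 of them were lower and none higher in KO (median -2.84, with 2.49% of all genes lower). On the NASH diet 6 were lower and none higher in KO (median -1.87, with 4.74% of all genes lower). With sex as a term these counts were 8 and 10, all lower, where 2.73% and 2.31% of all genes were lower. None of the list was called in KO NASH against KO chow, where 3.29% of all genes were. Hsd3b5, Serpina12, Serpina1e, Ugt2b1 and Moxd1 were the 5 that fell on chow. Moxd1 was at 23.8 to 73.1 CPM in WT chow and at no more than 1.21 CPM in any KO liver, with 380 CPM in the WT NASH male and no count in the 7 females. Among these lists, the Mup, Cyp2b, Cyp3a, Cyp4a and Sult2a genes have near-identical copies between which reads can be split, so their single values are uncertain.

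Of the 25 genes on the list of female-biased ones, 18 were higher in females and none lower (0.478% of all genes were higher). This list too was chosen for its bias, so that direction is not an independent result. In WT NASH against WT chow 16 rose and 1, Cyp4a14, fell (median log2 fold change 7.27), but with sex as a term none rose and 1, Cyp17a1, fell. Over all genes 2.69% rose and 3.24% fell there, and with sex as a term 0.457% rose and 0.658% fell. In KO chow against WT chow 14 rose and none fell (6.52, or 6.19 with 3 genes of 3 or fewer counts in a group set to that floor), and with sex as a term 3 rose and 1 fell. Over all genes 3.03% rose there, and with sex as a term 3.12% rose and 2.73% fell. Cyp2b9 and Cyp39a1 were among the list genes that rose. Cyp2b9 was at 0.05 to 2.19 CPM in WT chow, at 281 to 629 CPM in KO NASH, where 4 of 5 were males, and at 0.59 CPM in the WT NASH male. With sex as a term, its log2 fold change in KO chow against WT chow was 7.60 (SE 1.31, adjusted p = 0.00214 in edgeR). In KO NASH against WT NASH 1 rose (Cyp4a14) and 1 fell (Prlr). Over all genes 4.90% rose and 4.74% fell there.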

How the data were processed

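RNA-seq of mouse liver, 20 libraries in 4 groups of 5, was analysed from the deposited table of raw counts per gene symbol. The authors aligned reads with HISAT2 2.0.4 to GRCm38, per the submitters' processing notes, and no source used here gives the counting program, annotation or strand setting. Counts are whole numbers with no normalization. Groups, diets and ages come from the labels, and NASH samples are matched to the columns by their names. Nothing says whether mice shared litters or cages, so p-values measure the spread between these mice.

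The 10 genes and the gene lists were chosen with earlier results of these data known. The named genes are the 10 members, Pck1, the called gene of largest change per list and direction, and the 2 genes most correlated with each member. Other called list genes, a count of 5 or fewer, were named after their values were seen. Some list genes are not reported here by name.

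Counts were fitted in edgeR 4.0.16 (R 4.3.3): filterByExpr with a minimum count of 10 (14440 genes, 99.9% of counts), TMM scaling, 1 model with all 20 libraries, quasi-likelihood F tests, Benjamini-Hochberg adjustment over all tested genes; 95% intervals use the t quantile at each gene's degrees of freedom. CPM use TMM-scaled library sizes. Sex was called male at 100 or more Y-linked counts (2753 or more in 13 libraries, 12 or fewer in 7). The length slope is the regression of a library's log2 CPM deviation on log2 exonic length over 9445 genes. TMM factors were 0.68 to 0.85 in the 6 libraries of negative slope and 0.99 to 1.32 in the other 14. KO NASH replicates 1 and 5 were the closest pair but differed beyond sampling noise and were kept as 2 mice, as labelled. That difference does not settle whether they come from 1 mouse, and an alternative fit summed them. Same-numbered libraries of different groups had deviations correlated at -0.41 to 0.49, over 0.1 in 13 of 30 pairs, so numbers were not used as pairs. Alternatives were other scalings and filters, DESeq2 1.42.0, limma 3.58.1 voom, sex and slope terms, single sexes, a replicate block and leaving out each library, with 3 chosen after seeing the data. The fits were tested on simulated data.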

Additional observations from a re-analysis of the deposited data

Results flagged for a closer look

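In 40 tests of a single far-off liver (10 genes in 4 groups of 5), 4 values stood apart from the rest of their group, by a gap to the nearest liver of over 0.71 of the group's range. For normally distributed values, chance gives such a value in about 1 in 20 groups. Whether CPM values follow that distribution was not tested, and all 4 values were the highest of their group. Cish was at 26.32 CPM in WT chow replicate 2, against 8.71 in the next liver. Bcl6 was at 47.36 CPM in WT chow replicate 3, against 10.35 in the next. Cux2 was at 2.665 CPM in WT chow replicate 1, against 0.81 in the next, and at 2.351 CPM in KO NASH replicate 2, the only female of that group, against 0.43 in the next.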

How the results depend on the processing

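Of 2110 values of the 10 genes under alternatives, 2035 kept their direction and side of the threshold, or stayed uncalled. Of the rest, 25 lost a call, 48 gained one and 2 reversed, here meaning a lost call with a changed sign. In all, 125 values changed sign, the reversals included and the rest with no call under either setting. The reversals were Cux2 in males alone, at -2.83 in WT NASH against WT chow and 1.17 for the knockout on the NASH diet, and the cause was not tested. For WT NASH against WT chow, the 3 calls became 0 with sex as a term, in males alone, and with sex as a term without the 6 libraries, and 1 with sex and length slope as terms. For KO chow against WT chow, the 1 call became 0 with no low-count filter or only these groups, 2 with the replicate block, sex as a term, the slope as a term or males alone, 3 with DESeq2 or with sex and slope as terms, and 7 with limma. For KO NASH against WT NASH, the 3 calls became 6 with limma or without the 6 libraries, 0 in females alone, and 1 in females alone without the 6 libraries. For KO NASH against KO chow DESeq2 called 1. For the interaction, no filter called 1, DESeq2 1 (1.31% of all genes), the slope as a term 2 (1.32%) and limma 3 (13.5%). Between the sexes DESeq2 called 2. Leaving out 1 library gave 0 to 3 calls for KO chow against WT chow, 0 to 1 for diet in KO mice and for the interaction, and 1 to 2 between the sexes. With the replicate block, which these numbers only share and do not pair, Igf1 was called on chow (edgeR adjusted p = 0.0419). In that setting 6.11% of all genes were called in KO chow against WT chow. Alternatives that change the samples also change the fit, and single-sex fits of WT NASH rest on 1 male. At these depths the male Cux2 values rest on 1 to 45 counts, so their folds are imprecise.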
